A study of Mus musculus with 96 samples.

Results

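The Rab genes encode small GTPases that give each membrane compartment of a cell its identity and steer vesicles between compartments. A total of 58 of the 23955 genes listed had a symbol made of Rab, a number and at most a letter and a further digit, and these 58 are the members described here. Every cell's transcripts were measured in TPM (an abundance scaled to gene length and to a fixed total per cell, so that genes can be compared), in 96 single spleen cells.

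Each of 2 leukemic, moribund mice gave 48 cells, and both mice carried the genotype Flt3ITD/ITD;Dnmt3afl/- MxCre. Flt3 is a receptor kinase of blood progenitors and Dnmt3a a DNA methyltransferase, and MxCre is a Cre recombinase under an interferon-inducible promoter; whether and when it was induced is not given in the sources used here. Spleen cells were enriched with magnetic beads for c-Kit, a receptor of stem and progenitor cells, and captured on a microfluidic chip. All cells therefore shared the genotype, and no effect of either allele can be read from them. Mouse, capture round and column prefix cannot be told apart.

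Within each mouse, cells were placed in classes by a cut of 1000 TPM. Class II-high cells reached it for H2-Aa, a chain of MHC class II (14 cells in mouse 1 and 20 in mouse 2). Among the others, S100a8-high cells reached it for a neutrophil granule-cell gene (1 and 10 cells), then Mpo-high cells for the myeloperoxidase of granulocyte-monocyte progenitors (13 and 12 cells), and the rest were 20 and 6 cells. H2-Aa left a wide gap: the highest cell under the cut had 98.3 and 114.5 TPM in mouse 1 and mouse 2, and the lowest above it 20800 and 6732 TPM. Mpo was graded, so its class is a range: 8 cells of mouse 1 and 2 of mouse 2 lay within 3-fold below the cut, the highest at 998.9 and 776.3 TPM, and 4 and 1 within 3-fold above it, the lowest at 1033 and 2348 TPM. In all, 4 cells passed more than 1 cut: 1 class II-high cell, the S100a8-high cell of mouse 1 and 2 S100a8-high cells of mouse 2. The S100a8-high cell of mouse 1 had 1251 TPM of S100a8 but 34100 TPM of Mpo.

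The classes were described with lists of cell type markers. H2-Aa is in the class II list and Mpo in the progenitor list, so high sums of these lists follow in part from the cut itself. The 10 class II and type 1 dendritic cell (cDC1) markers summed to medians of 87970 and 88080 TPM in the class II-high cells of mouse 1 and mouse 2. In those cells all 6 B cell markers stayed under 1 TPM in mouse 1 and summed to at most 3.84 TPM in mouse 2. The 5 plasmacytoid dendritic cell markers summed to medians of 974.3 and 1150 TPM there, with 1 of 5 at a median of 10 TPM or more in each mouse. For monocyte and macrophage markers the sums were 996.1 and 594.3 TPM, with 2 of 8 at such a median. The class II and cDC1 markers summed to medians of 62.46 and 47.81 TPM in Mpo-high cells. In the rest they summed to 39.73 and 53.11 TPM. Of the 10, 9 and 10 had a median of 10 TPM or more in class II-high cells of mouse 1 and mouse 2. In Mpo-high cells 1 and 1 did, and in the rest 0 and 1. The 6 granulocyte-monocyte progenitor markers summed to medians of 9504 and 13550 TPM in Mpo-high cells. The rest was mixed, with erythroid markers up to 8916 TPM, mast cell and basophil markers up to 7403 TPM and megakaryocyte markers up to 23380 TPM in mouse 1. TPM keeps no read depth, so the detected genes of a cell (1 TPM or more) stand in for the unknown depth. Their medians in mouse 1 and mouse 2 were 2921.5 and 2581 in class II-high cells, 4463 and 4041 in Mpo-high cells, and 3587.5 and 4251.5 in the rest.

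A Rab protein cycles between a membrane-bound, GTP-loaded form that recruits effectors and a soluble, GDP-loaded form held by a chaperone. Guanine nucleotide exchange factors (GEFs) switch it on and GTPase-activating proteins (GAPs) switch it off, and a prenyl anchor added by a transferase holds it to the membrane. In blood cells Rab proteins are known for antigen handling in dendritic cells and for the release of granules in neutrophils, mast cells and cytotoxic cells.

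Sequence is shown for 4 of the members that differed most between classes, so that the 5′ flanks of genes that were high and of genes that were low in class II-high cells can be set side by side. Each line is the 250 bases before a RefSeq transcription start, 5′ to 3′ on the gene's strand (GRCm38.p6). Capitals mark matches to a searched motif on either strand. Rab43 lies at chr6:87812165-87812414, minus strand, before the most upstream of its 4 listed starts. Rab32 lies at chr10:10558208-10558457, minus strand. Rab27a lies at chr9:73044560-73044809, plus strand, before the more upstream of its 2 starts, and Rab31 at chr17:65772753-65773002, minus strand.
Rab43: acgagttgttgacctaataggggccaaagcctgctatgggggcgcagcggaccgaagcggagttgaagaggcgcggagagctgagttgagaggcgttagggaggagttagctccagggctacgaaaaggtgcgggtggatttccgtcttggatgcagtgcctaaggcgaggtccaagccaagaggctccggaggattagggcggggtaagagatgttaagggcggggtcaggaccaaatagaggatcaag
Rab32: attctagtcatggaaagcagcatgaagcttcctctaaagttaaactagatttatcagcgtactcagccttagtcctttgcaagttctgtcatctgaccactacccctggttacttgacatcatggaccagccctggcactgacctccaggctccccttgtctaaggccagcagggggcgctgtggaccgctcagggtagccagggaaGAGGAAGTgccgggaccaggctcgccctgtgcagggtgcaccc
Rab27a: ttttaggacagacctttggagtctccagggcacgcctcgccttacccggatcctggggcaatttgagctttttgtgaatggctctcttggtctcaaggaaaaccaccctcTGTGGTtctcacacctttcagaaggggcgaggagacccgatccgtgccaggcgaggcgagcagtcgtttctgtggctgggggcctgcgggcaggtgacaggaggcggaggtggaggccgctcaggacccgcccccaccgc
Rab31: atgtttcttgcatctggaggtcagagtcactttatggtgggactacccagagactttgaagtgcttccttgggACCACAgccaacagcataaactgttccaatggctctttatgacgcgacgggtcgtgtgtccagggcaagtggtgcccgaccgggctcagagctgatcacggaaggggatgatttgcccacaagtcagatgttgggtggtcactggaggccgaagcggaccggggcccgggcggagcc
The motifs were chosen after the members' values had been seen, and a match is only a string of letters. TGTGGT, the core of a Runx site, was in the windows of 3 of the 8 called members that had an entry (Rab11a, Rab27a and Rab31), against 14% of all 32851 windows. GAGGAAGT, the core of a PU.1 site, was in the window of Rab32, against 2.44% of all. GGAANNGAA, the outline of a composite ETS and IRF site, was in that of Rab11b, against 6.99%. CACGTG, an E-box (6.02% of all windows), GAAANNGAA, found in interferon response elements (7.13%), and TTGCNNAA, the outline of a C/EBP site (9.56%), were in none of the 8. No motif overlapped another in the 4 windows printed. Of the 58 members, 46 had an entry in the RefSeq table.

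Rab transcripts were widespread but patchy. Of the 58 members, 52 reached 1 TPM in at least 1 cell, and Rab15, Rab25, Rab26, Rab34, Rab9b and Rab39b were listed at 0 in every cell. A mean of 100 TPM or more over all cells was found for 10 members, 10 to 100 TPM for 26, and less for 22. A cell held a median of 17 Rab genes at 1 TPM or more, with a range of 7 to 26. This number followed the number of all detected genes (Pearson r = 0.79 over 96 cells, which share libraries and depth).

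Rab31, which acts between the trans-Golgi network and endosomes, had the highest mean over the 96 cells, 271 TPM (lowest 0, median 34.5, highest 2154 TPM). Rab7, of late endosomes and lysosomes, followed with 253 TPM, and Rab11a, of recycling endosomes, with 182 TPM. Rab32, Rab38, Rab8a, Rab1, Rab14, Rab8b and Rab44 had means of 175, 154, 143, 120, 110, 109 and 106 TPM. Rab11b and Rab4b completed the 12 highest with 83.8 and 81.6 TPM. Every one of the 12 had a cell at 0, and whether neighbours in this order differ was not tested.

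Within families of near relatives, 1 gene usually carried most of the transcripts. Rab4b held 97.9% of the summed Rab4 TPM, Rab27a 98.0% of the Rab27, Rab6a 99.9% of the Rab6 and Rab3d 82.7% of the Rab3 total. Rab2a, Rab33b and Rab40c held 84.2%, 90.4% and 86.9% of theirs, and Rab9 and Rab39 all of theirs. Shares were more even for Rab8a with Rab8b (56.7% and 43.3%), Rab11a with Rab11b (68.4% and 31.6%) and Rab1 with Rab1b (68.5% and 31.5%). Rab5b, Rab5a and Rab5c held 50.7%, 36% and 13.3%. How the authors' counting divided reads between near-identical relatives was not tested.

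**Figure D1:**
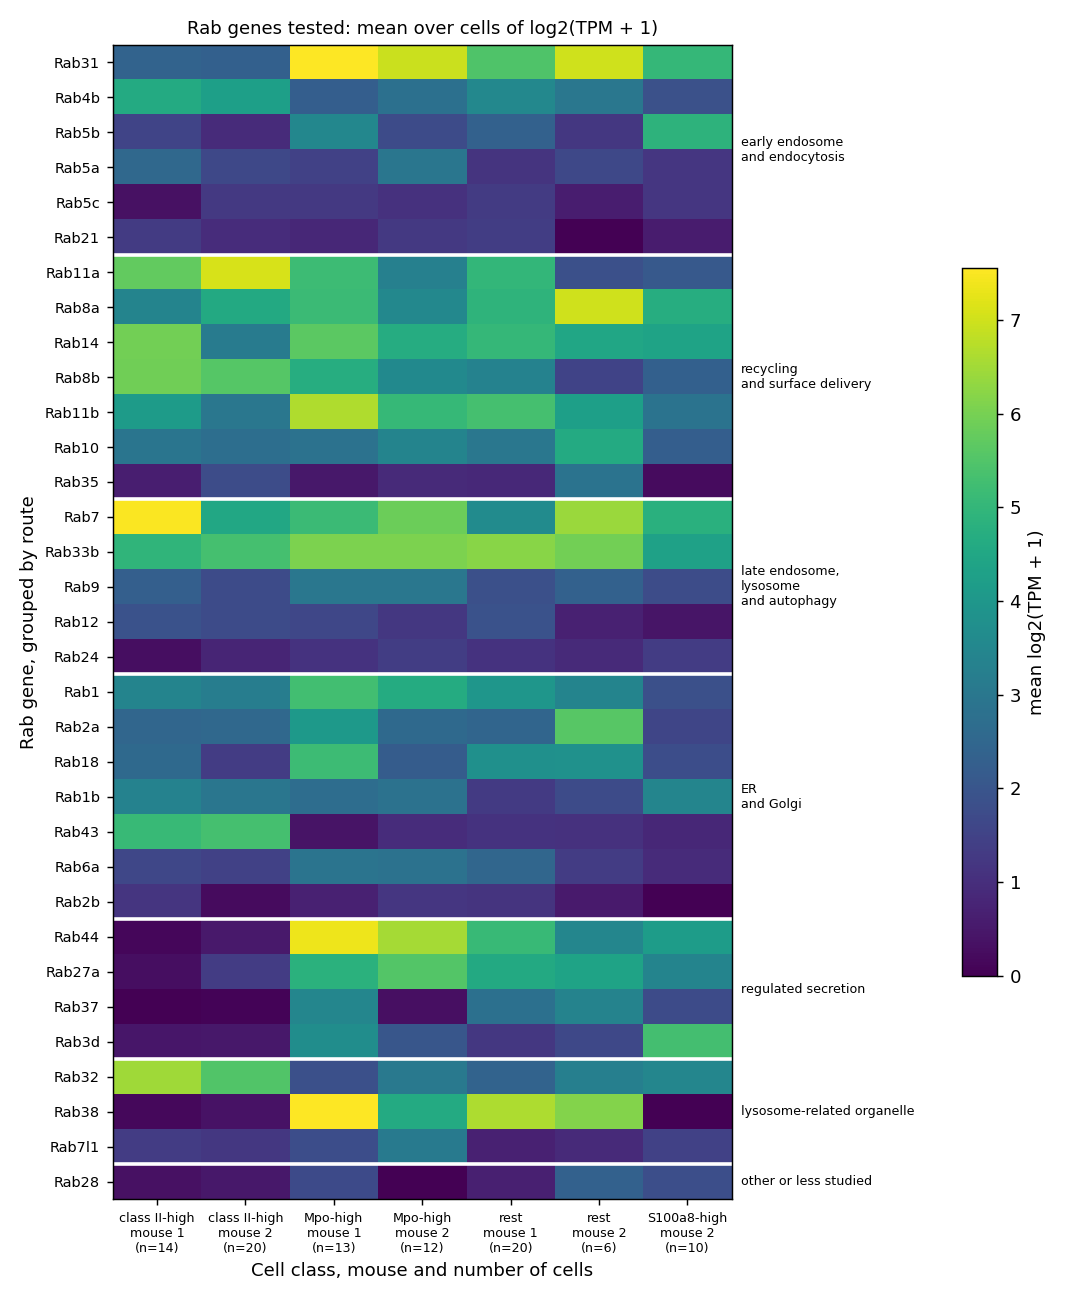
Mean over cells of log2(TPM + 1) for the 33 Rab genes that entered the tests (rows, grouped by the route their protein serves), in each class of each mouse (columns, with the number of cells). Rab43 and Rab32 are bright in both class II-high columns, and Rab38, Rab44 and Rab27a are dark there.

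Classes were compared on the mean of log2(TPM + 1) over the cells of 1 class in 1 mouse. The mouse is the replicate (n = 2), and limma was fitted across all 8718 genes that 10 cells or more held at 1 TPM, of which 33 were members. A gene was called when the Benjamini-Hochberg adjusted p from limma was under 0.05. The p-values measure only how far class differences varied between the 2 mice, pooled across genes. The added 1 shrinks the differences of weakly expressed genes.

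Against the rest, class II-high cells had higher Rab43, Rab8b, Rab32 and Rab11a and lower Rab38, Rab44, Rab31, Rab27a and Rab37. That was 4 of 33 members called higher, where 3.82% of all genes were, and 5 called lower, where 12.5% of all genes were. The median difference was -0.38 over the 33 members and -0.71 over all genes, so differences sit on a general shift toward lower values in class II-high cells, which also had fewer detected genes. With the detected-gene number removed by a linear fit, the median was 0.44 over the members and -0.12 over all genes. Calls over all genes then divided into 503 higher and 421 lower in place of 333 and 1088. Among the members, 5 were called higher and 4 lower: Rab1b joined and Rab37 was lost. Of the 33 members, 24 had the same sign in both mice, 8 of them higher and 16 lower. The share of all genes with the same sign was not computed, so this count has no background.

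Against Mpo-high cells, Rab43 and Rab32 were called higher in class II-high cells, 2 of 33 members where 3.28% of all genes were. Rab44, Rab38, Rab31, Rab27a, Rab3d and Rab11b were called lower, 6 of 33 members where 23.8% of all genes were. The median difference was -0.63 over the members and -0.99 over all genes. With the detected-gene number removed, the median was 0.59 over the members and -0.09 over all genes. Calls over all genes then divided into 540 higher and 443 lower in place of 286 and 2079. Among the members, 5 were called higher and 4 lower: Rab7, Rab8b and Rab11a joined, and Rab3d and Rab11b were lost. Both comparisons use the same class II-high cells, so they are not independent.

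All of these calls were lost when no filter on low values was used, a setting under which limma pooled less of the spread (4.1 in place of 15.6 total degrees of freedom) and called 17 of 13746 genes against the rest. With the log2 of the mean TPM in place of the mean of log2 values, only Rab38 and Rab44 were called, in both comparisons.

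**Figure D2:**
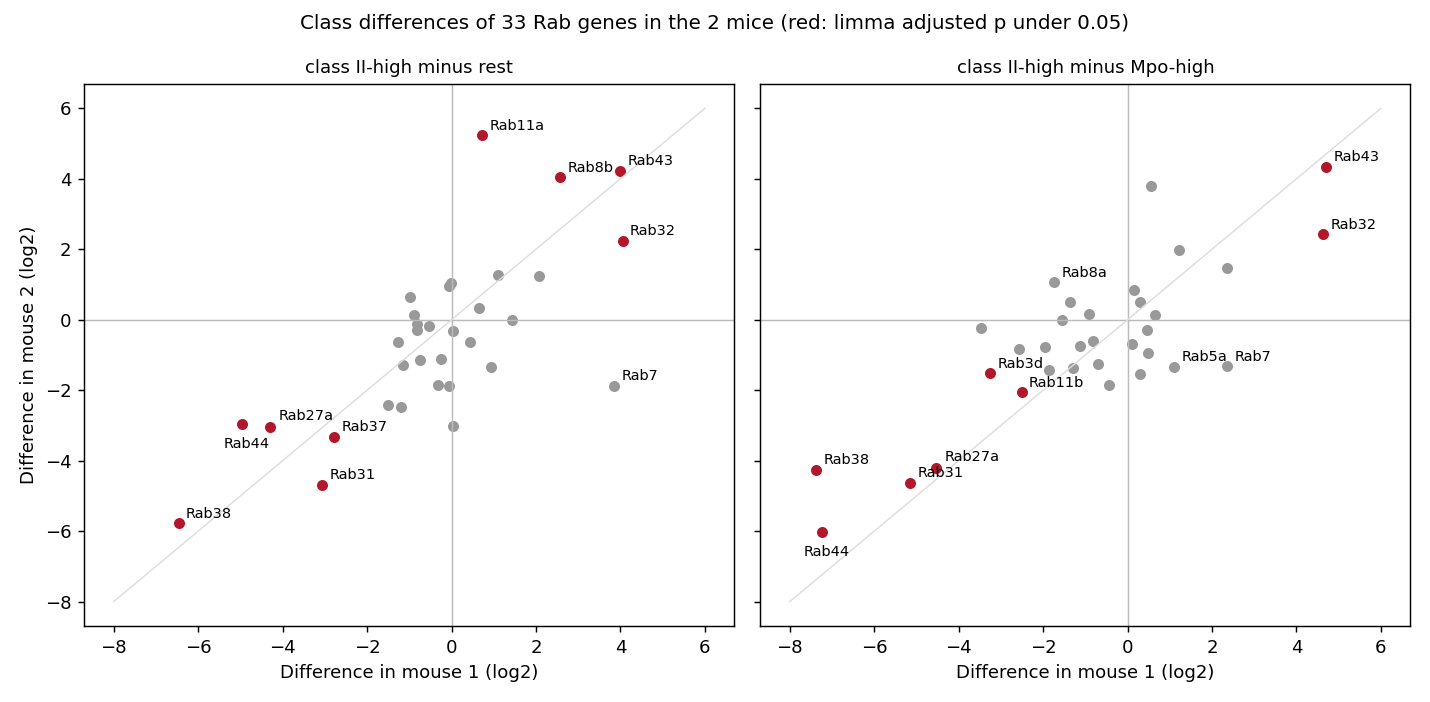
Differences between classes in mouse 1 (horizontal axis) and mouse 2 (vertical axis) for the 33 Rab genes tested, in log2(TPM + 1), against the rest (left) and against Mpo-high cells (right). Red points had a limma adjusted p under 0.05 and the grey diagonal marks equal differences. Rab43 and Rab32 lie at the upper right and Rab38, Rab44, Rab31 and Rab27a at the lower left in both panels, while Rab11a rests mainly on mouse 2.

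Among the Rab genes of the endoplasmic reticulum and Golgi, Rab43 stood out. It is a Golgi Rab known for its part in cross-presentation by cDC1 cells, and lies on chromosome 6, 87788853 to 87812164, minus strand (GRCm38). In class II-high cells of mouse 1 its lowest, median and highest levels were 0, 31.9 and 536.3 TPM, and in those of mouse 2 they were 0, 37.04 and 771.9 TPM. The medians of Mpo-high cells were 0 TPM in both mice, and their highest cells had 31.3 and 64.5 TPM. In the rest, the medians were 0 and 0.265 TPM and the highest cells 140.1 and 37.9 TPM. The classes overlapped, because some class II-high cells were at 0, but most lay above nearly all other cells: 10 of 14 and 17 of 20 reached 10 TPM, against 1 of 13 and 2 of 12 Mpo-high cells and 3 of 20 and 1 of 6 of the rest. Against the rest the difference was 4.11 (SE 0.74; 3.99 and 4.23 in mouse 1 and mouse 2; limma adjusted p 0.00189). Against Mpo-high cells it was 4.52 (SE 0.74; 4.70 and 4.34; limma adjusted p 0.000839).

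The other 6 tested members of this route had no call in either comparison. Rab1, of traffic from the endoplasmic reticulum to the Golgi, had medians of 2.71 and 1.31 TPM in class II-high cells, 90.4 and 44.1 TPM in Mpo-high cells and 35.9 and 11.99 TPM in the rest of mouse 1 and mouse 2. Its range in class II-high cells of mouse 2 ran from 0 to 4032 TPM, the highest level of any member in any cell. Its differences from the rest were -0.53 and -0.18. Those of its relative Rab1b were 2.06 and 1.25, with a limma adjusted p of 0.139.

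The route to lysosome-related organelles held the sharpest contrast between relatives. Rab32 and Rab38 serve the delivery of cargo to melanosomes and related organelles and share the exchange factor Hps1-Hps4. Rab32 (chromosome 10, 10545002 to 10558265, minus strand) had lowest, median and highest levels of 0, 320.4 and 1371 TPM in class II-high cells of mouse 1 and 0, 101.5 and 1381 TPM in those of mouse 2. Mpo-high cells had medians of 0.3 and 1.30 TPM and highest cells of 78.9 and 326.5 TPM. The rest had medians of 0.52 and 0.31 TPM and highest cells of 377.5 and 1327 TPM. Single cells of the other classes thus reached the class II-high range, and the groups overlapped in both mice. The difference was 3.15 against the rest (SE 0.84; 4.06 and 2.25; limma adjusted p 0.0199) and 3.53 against Mpo-high cells (SE 0.84; 4.63 and 2.43; limma adjusted p 0.00821).

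Rab38 (chromosome 7, 88430273 to 88491572, plus strand) ran the other way. Its highest class II-high cell had 0.56 TPM in mouse 1 and 2.18 TPM in mouse 2. Mpo-high cells had lowest, median and highest levels of 0, 278.2 and 917.4 TPM in mouse 1 and 0, 41.8 and 805 TPM in mouse 2, and the rest 0, 279.2 and 721.3 TPM and 0, 95.8 and 977.5 TPM. No class II-high cell reached 10 TPM (0 of 14, exact 95% interval 0 to 23.2%; 0 of 20, 0 to 16.8%), against 12 of 13 and 7 of 12 Mpo-high cells and 16 of 20 and 5 of 6 of the rest. These intervals are Clopper-Pearson intervals and cover the counting of cells only. The difference was -6.12 from the rest (SE 0.88; -6.46 and -5.78; limma adjusted p 0.000313) and -5.81 from Mpo-high cells (SE 0.88; -7.37 and -4.25; limma adjusted p 0.000453).

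Cell by cell, the classes differed in which gene of the pair they held, with overlap. At 10 TPM, Rab32 without Rab38 was found in 10 of 14 and 14 of 20 class II-high cells, and neither in the remaining 4 and 6. In Mpo-high cells of mouse 1, Rab38 without Rab32 was found in 8, both in 4 and neither in 1; in mouse 2 the counts were 4, 3 and 4, with Rab32 alone in 1. In the rest of mouse 1, Rab38 alone was found in 12 cells, both in 4, Rab32 alone in 3 and neither in 1. The rest of mouse 2 held Rab38 alone in 3 cells, both in 2 and neither in 1. Among the 10 S100a8-high cells of mouse 2, Rab32 alone was found in 4 and neither in 6. Rab32 without Rab38 was thus not particular to class II-high cells. Both genes were therefore found together in single cells only outside the class II-high and S100a8-high classes at this threshold. Rab7l1, the third member of this route and known for its link to the kinase Lrrk2, was at 10 TPM or more in 18 of 96 cells and had no call.

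**Figure D3:**
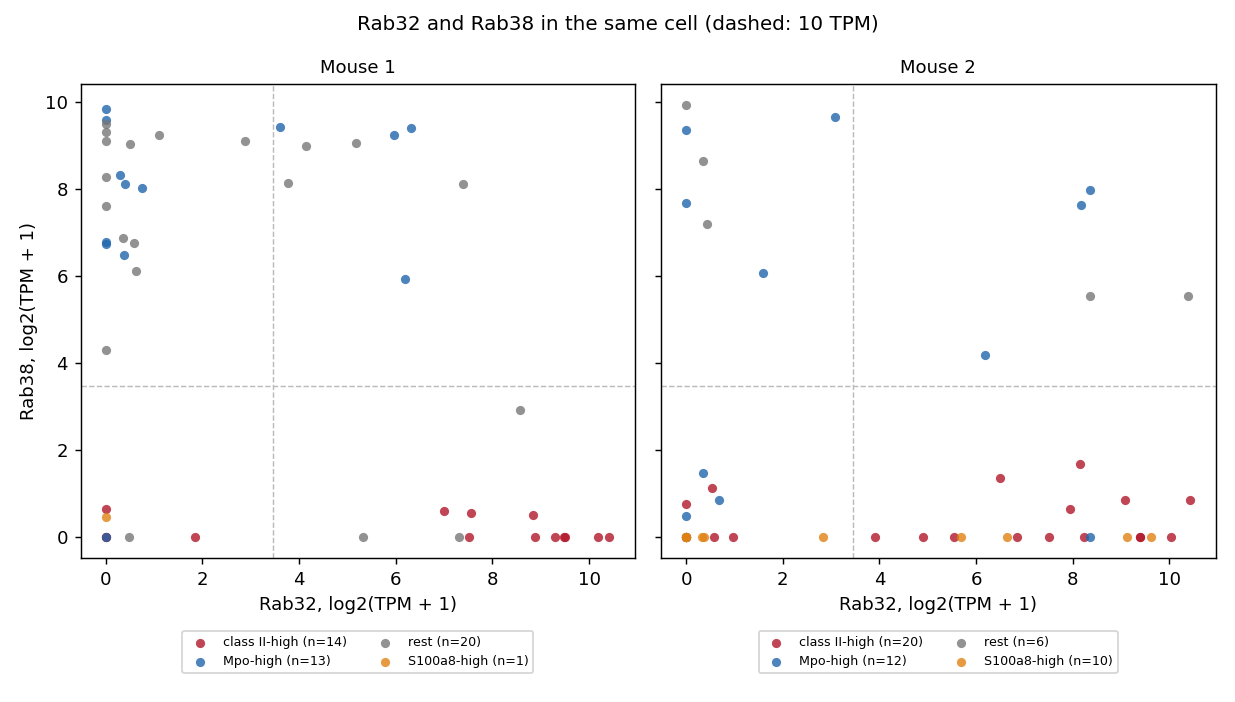
Rab32 (horizontal axis) and Rab38 (vertical axis) in each cell, as log2(TPM + 1), for mouse 1 and mouse 2. Each point is 1 cell coloured by class, and dashed lines mark 10 TPM. Class II-high cells lie along the bottom, 10 of 14 and 14 of 20 of them to the right of the dashed line, and cells with both genes are Mpo-high or rest cells.

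Of the 4 Rab genes of regulated secretion tested, 3 were called lower in class II-high cells than in the rest, where 12.5% of all genes were, and 3 lower than in Mpo-high cells, where 23.8% of all genes were. Rab3d against the rest and Rab37 against Mpo-high cells did not pass (limma adjusted p 0.363 and 0.107). Rab44, a large atypical Rab known from mast cell degranulation, lies on chromosome 17, 29114145 to 29148980, plus strand. Its highest class II-high cell had 0.38 TPM in mouse 1 and 32.3 TPM in mouse 2, with medians of 0 and 0.275 TPM. Mpo-high cells had lowest, median and highest levels of 20.8, 170.4 and 738 TPM in mouse 1 and 1.57, 122.1 and 627.8 TPM in mouse 2. In mouse 1 the 2 classes did not overlap, and in mouse 2 they overlapped in few cells. The rest was spread widely, with medians of 55.1 and 9.07 TPM and highest cells of 629.8 and 446.2 TPM. The difference was -6.64 from Mpo-high cells (SE 0.82; -7.24 and -6.03; limma adjusted p 8.11e-05) and -3.97 from the rest (SE 0.82; -4.97 and -2.97; limma adjusted p 0.00487).

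Rab27a, which tethers secretory granules and lysosome-related organelles at the plasma membrane, lies on chromosome 9, 73044854 to 73097629, plus strand. Its highest class II-high cell had 1.22 TPM in mouse 1, whereas in mouse 2 the median was 0.05 TPM and the highest cell 484.8 TPM. Mpo-high cells had medians of 35.7 and 64.3 TPM and highest cells of 806.1 and 384.4 TPM, and the rest had medians of 39.9 and 51.9 TPM and highest cells of 542.8 and 648.4 TPM. In mouse 2, 3 of 20 class II-high cells reached 10 TPM, and the groups overlapped. The difference was -3.67 from the rest (SE 0.80; -4.30 and -3.05; limma adjusted p 0.00644) and -4.37 from Mpo-high cells (SE 0.80; -4.54 and -4.20; limma adjusted p 0.00175).

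Rab37, a granule Rab of mast cells, was at 0 in every class II-high cell of mouse 1 and at most 0.55 TPM in those of mouse 2. In the rest, 9 of 20 cells of mouse 1 and 3 of 6 of mouse 2 reached 10 TPM, with highest levels of 290.1 and 669.3 TPM. In Mpo-high cells the mice differed: the medians were 20.2 and 0 TPM and the highest cells 421.4 and 8.48 TPM. The difference from the rest was -3.05 (SE 0.84; -2.77 and -3.32; limma adjusted p 0.0239), and this call was lost with the detected-gene number removed (adjusted p 0.0752), among others of the alternatives.

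Rab3d, which sits on secretory granules, had medians of 0 TPM in class II-high cells and in the rest of both mice. Mpo-high cells had medians of 32.9 and 0.14 TPM and highest cells of 169.3 and 52.5 TPM. The difference from Mpo-high cells was -2.39 (SE 0.71; -3.25 and -1.51; limma adjusted p 0.0244), and it was -0.40 with the detected-gene number removed (adjusted p 0.755).

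Markers of mast cells and basophils were found outside the class II-high cells. The 5 listed (Mcpt8, Prss34, Cpa3, Ms4a2 and Fcer1a) summed to at most 3.2 and 5.41 TPM in class II-high cells of mouse 1 and mouse 2. In Mpo-high cells they had medians of 229.9 and 198.8 TPM and highest cells of 5638 and 6482 TPM, and in the rest medians of 1.81 and 0 TPM and highest cells of 7403 and 2306 TPM. Prss34, Ms4a2 and Fcer1a stayed under 1 TPM in every Mpo-high and rest cell of mouse 1. In mouse 2 the same genes did so in every cell of the rest, and Prss34 and Fcer1a in every Mpo-high cell. The sums in these classes thus come almost only from Mcpt8 and Cpa3, apart from Ms4a2 in Mpo-high cells of mouse 2. The part of cells with these markers in the levels of Rab44, Rab37 and Rab27a was not tested.

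**Figure D4:**
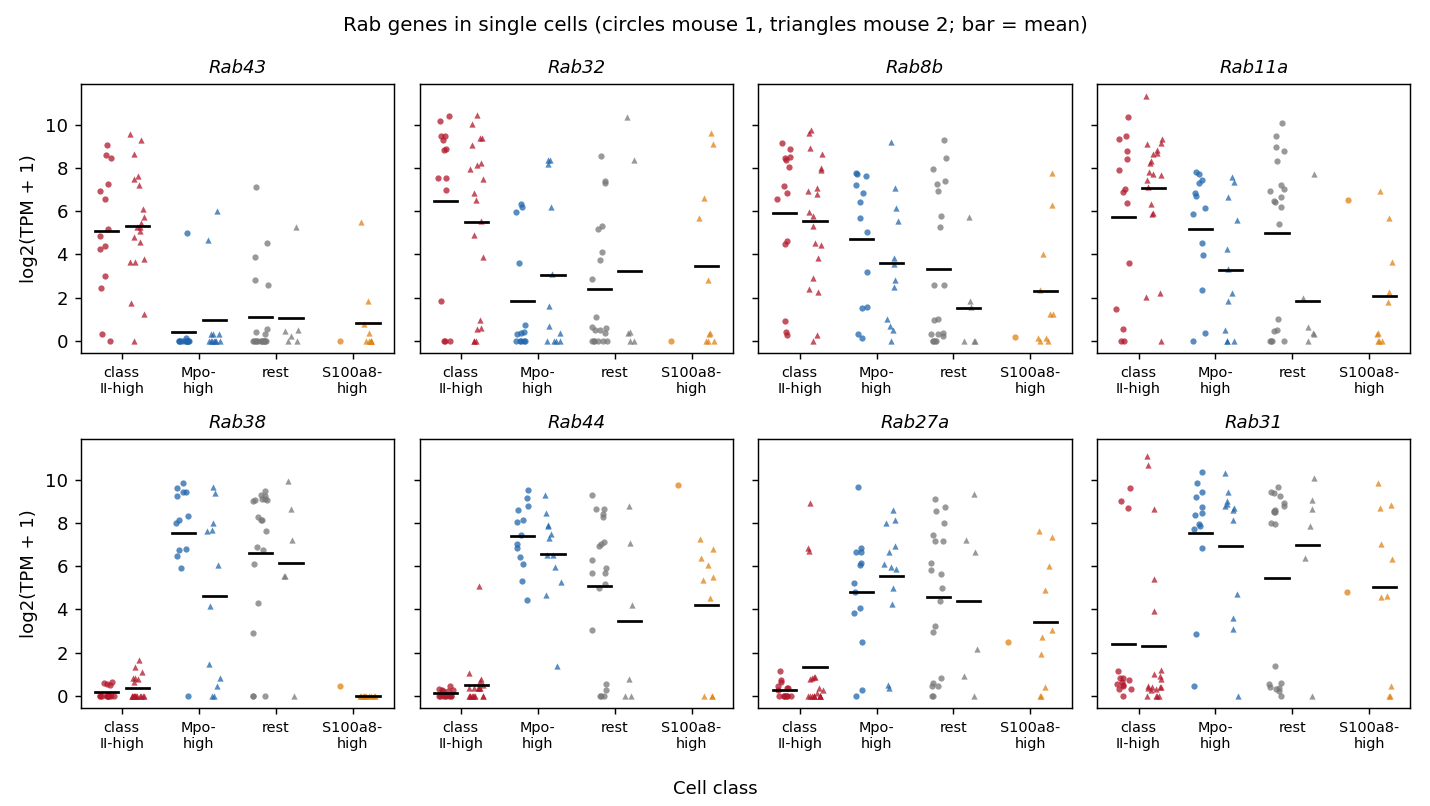
Levels of 8 Rab genes in each cell, as log2(TPM + 1), by class (circles for mouse 1, triangles for mouse 2, black bars for the mean over cells). The upper row holds the genes called higher in class II-high cells than in the rest and the lower row 4 of those called lower. Most class II-high cells are near 0 for Rab38, Rab44 and Rab27a, and every panel has cells of other classes inside the class II-high range or the reverse.

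On the route of recycling and surface delivery, Rab8b and Rab11a were called higher in class II-high cells than in the rest. Rab8b, which directs vesicles to the cell surface, lies on chromosome 9, 66843664 to 66919687, minus strand. It had lowest, median and highest levels of 0.22, 127.9 and 569.1 TPM in class II-high cells of mouse 1 and 0, 57.1 and 874.1 TPM in those of mouse 2. The rest had medians of 2.97 and 1 TPM and highest cells of 635.5 and 52.7 TPM, and Mpo-high cells lay between them with medians of 50.3 and 8.55 TPM. The groups overlapped. The difference was 3.31 from the rest (SE 0.80; 2.58 and 4.04; limma adjusted p 0.0124) and 1.60 from Mpo-high cells, which did not pass (limma adjusted p 0.140).

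Rab11a lies on chromosome 9, 64715299 to 64737758, minus strand, and its call depended on mouse 2. In mouse 1 the medians were 123.2 TPM in class II-high cells, 70.4 TPM in Mpo-high cells and 86.4 TPM in the rest. In mouse 2 they were 215.4, 6.41 and 0.43 TPM, and 17 of 20 class II-high cells reached 10 TPM against 5 of 12 and 1 of 6. The difference from the rest was 0.72 in mouse 1 and 5.24 in mouse 2, on average 2.98 (SE 0.97; limma adjusted p 0.0465). That call was lost without the block for the mouse (adjusted p 0.0793) and under 5 further alternatives. Against Mpo-high cells the difference was 2.18 (0.56 and 3.81; limma adjusted p 0.0996).

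Rab11b, the relative of Rab11a, had differences of the opposite sign, but neither comparison called both genes. Its difference from the rest was -1.22 (-1.16 and -1.27), which did not pass (limma adjusted p 0.278). Its medians were 28.7 and 3.78 TPM in class II-high cells, 118.9 and 50.4 TPM in Mpo-high cells, and 54.2 and 41.2 TPM in the rest. All 13 Mpo-high cells of mouse 1 reached 10 TPM. The difference from Mpo-high cells was -2.28 (SE 0.77; -2.50 and -2.05; limma adjusted p 0.0394), and it was -1.57 with the detected-gene number removed (adjusted p 0.198). The call was kept in 4 of 11 alternatives and was also lost without the block for the mouse (adjusted p 0.0680). Rab11a without Rab11b was found at 10 TPM in 11 of 20 class II-high cells of mouse 2, against 0 of 12 Mpo-high cells.

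Rab8a, the relative of Rab8b, and Rab14, which serves endosome and Golgi traffic, had no call. Rab8a had medians of 3.34 and 52.5 TPM in class II-high cells, 60.6 and 14.7 TPM in Mpo-high cells and 87.9 and 174.2 TPM in the rest. Rab14 had medians of 118.7 and 2.69 TPM, 180.1 and 33.3 TPM, and 38.6 and 21.9 TPM in the same order. For both genes the order of the class medians differed between the mice.

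Of the 6 early endosomal members tested, Rab31 was called. It lies on chromosome 17, 65651729 to 65772752, minus strand. Class II-high cells had medians of 0.59 and 0.345 TPM but highest cells of 795.9 and 2154 TPM. Mpo-high cells had medians of 330.5 and 401.4 TPM and the rest 305.2 and 315.2 TPM, and both classes also held cells at or near 0. So Rab31 was high in few class II-high cells (3 of 14 and 5 of 20 at 10 TPM) and in most others (11 of 13 and 10 of 12; 12 of 20 and 5 of 6). The difference was -3.88 from the rest (SE 0.79; -3.07 and -4.69; limma adjusted p 0.00447) and -4.89 from Mpo-high cells (SE 0.79; -5.15 and -4.62; limma adjusted p 0.000769). Computed from the mean TPM, which the few high cells carry, the differences were -1.03 and -1.28 and neither passed (adjusted p 0.191 and 0.136).

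Rab4b, of fast recycling from early endosomes, had medians of 60 and 26.2 TPM in class II-high cells, 0 and 3.44 TPM in Mpo-high cells and 21.1 and 2.92 TPM in the rest. Its difference from Mpo-high cells was 1.92 (2.36 and 1.47), with a limma adjusted p of 0.0802. Of the 5 late endosomal, lysosomal and autophagy members tested, limma called none in these comparisons, and 0 had an unadjusted p under 0.05 in either. Over all 8718 genes, 2931 had such a p against the rest and 3660 against Mpo-high cells. The joined call of Rab7 above is the exception among the alternatives. Rab7 had medians of 325.4 TPM in class II-high cells, 67.5 TPM in Mpo-high cells and 5.09 TPM in the rest of mouse 1, and of 44.8, 139.9 and 116.3 TPM in mouse 2, so class II-high cells had the highest median in mouse 1 and the lowest in mouse 2.

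Between Mpo-high cells and the rest, limma called 0 of the 33 members. Over all genes, 0.344% were called higher and 0.0459% lower. An unadjusted limma p under 0.05 was found for 3 of the 33 members and for 1137 of all 8718 genes. No alternative fit with limma called a member either. The member with the highest difference was Rab44, at 2.67 (2.27 and 3.07; limma adjusted p 0.198), followed by Rab8b at 1.71, Rab7l1 at 1.63 and Rab3d at 1.44. The lowest with the same sign in both mice were Rab35 at -1.18, Rab4b at -0.73, Rab10 at -0.68 and Rab43 at -0.41. The limma adjusted p-values of the other 7 were between 0.309 and 0.875.

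S100a8-high cells were described within mouse 2 (10 cells), without a test, since mouse 1 had 1 such cell. Compared with the Mpo-high cells of that mouse, 5 of 33 members were higher by 1 or more, where 7.39% of all genes were, and 16 were lower by 1 or more, where 45.9% of all genes were. The median difference was -0.98 over the members and -0.86 over all genes. The 9 late neutrophil markers, S100a8 included, summed to a median of 433400 TPM in S100a8-high cells, where a cell's total is 1000000. How far this share lowered the values of other genes was not tested. S100a8-high cells had a median of 2821 detected genes. Rab3d had lowest, median and highest levels of 0, 82.3 and 187.6 TPM in them, against 0, 0.14 and 52.5 TPM in Mpo-high cells, a difference of 3.30. Rab5b, of early endosomes, had 0, 62.98 and 483.8 TPM against 0, 0.33 and 85.2 TPM, a difference of 3.18. Both had higher means in this class than in every other class of mouse 2. Rab38 was at 0 in all 10 cells (exact 95% interval of the share at 10 TPM 0 to 30.8%), and Rab44 was at 10 TPM or more in 7 of 10, with a median of 42.6 TPM.

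Between the mice, over all 48 cells of each, no member was higher in mouse 2 by 1 or more (1.96% of all genes were) and 6 were lower by 1 or more (14.6% of all genes were). There is no test, since each side is 1 animal. Rab38 had the lowest difference, -2.79, with means of 227.3 and 79.9 TPM in mouse 1 and mouse 2. Rab18, Rab11b, Rab14, Rab37 and Rab44 followed with -1.86, -1.59, -1.41, -1.22 and -1.21. The highest were Rab32 at 0.80, Rab43 at 0.71, Rab35 at 0.67 and Rab1b at 0.63. Class sizes differed between the mice, with 14 and 20 class II-high cells. Within the class II-high cells, where most values were near 0, Rab38, Rab37 and Rab44 differed by 0.20, 0.06 and 0.38. Within Mpo-high cells they differed by -2.92, -3.17 and -0.83, and within the rest by -0.48, 0.60 and -1.62. Of the 6, only Rab11b and Rab14 were lower in mouse 2 in each of the 3 classes compared.

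The machinery that acts on Rab proteins was followed with 4 gene lists. Of the 7 prenylation and chaperone genes tested, limma called 0 against the rest, where 3.82% of all genes were called higher and 12.5% lower. In that comparison 2 of the 7 had an unadjusted limma p under 0.05, as did 2931 of all 8718 genes. Rabggtb, a subunit of the prenyl transferase (-3.17), and Rabac1 (-2.78) were called lower than in Mpo-high cells, where 23.8% of all genes were. Against the rest, Rabac1 and Rabif had the largest differences with 1 sign in both mice, at -1.88 and -1.65, and neither passed (limma adjusted p 0.113 and 0.164). The median of this list was -0.95 against the rest, where that of all genes was -0.71.

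Of 32 GEFs tested, limma called 0 against the rest, where 3.82% of all genes were called higher and 12.5% lower. In that comparison 1 GEF had an unadjusted limma p under 0.05, as did 2931 of all 8718 genes. Lower than in Mpo-high cells were 3 GEFs by limma call, where 23.8% of all genes were. Rin3, a GEF of the Rab5 group, had means of 6.65 and 4.22 TPM in class II-high cells, 49.05 and 27.9 TPM in Mpo-high cells and 3.44 and 0.182 TPM in the rest. Its difference from Mpo-high cells was -3.35 (limma adjusted p 0.00341), and Mpo-high cells exceeded the rest by 3.58 (limma adjusted p 0.0293). Ccz1 and Trappc6a were the others, at -2.47 and -3.47. Against the rest, Trappc6a, Trappc6b and Trappc5 had the largest differences, at -1.69, -1.69 and -1.25, and none passed (limma adjusted p 0.175, 0.169 and 0.247).

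Of 23 GAPs tested, 2 rose and 2 fell against the rest, where 3.82% and 12.5% of all genes did, and 3 rose and 3 fell against Mpo-high cells, where 3.28% and 23.8% of all genes did. Tbc1d8 had means of 78.6 and 93.4 TPM in class II-high cells, 0.182 and 0.636 TPM in Mpo-high cells and 2.23 and 0.29 TPM in the rest, a difference of 3.31 from the rest (3.33 and 3.29; limma adjusted p 0.00282). Tbc1d9 rose as well, by 1.17. Rabgap1l, with means of 8.26 and 2.16 TPM in class II-high cells and 168.9 and 20.1 TPM in the rest, had a difference of -3.54 (limma adjusted p 0.0131), and Tbc1d9b one of -3.05 (limma adjusted p 0.0155). Against Mpo-high cells, Tbc1d4, a GAP of the Rab8 and Rab10 group, rose by 2.35 with Tbc1d8 and Tbc1d9, and Tbc1d15 and Tbc1d2b fell with Rabgap1l.

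Of 33 effectors and regulators tested, 1 rose and 2 fell in each comparison, where 3.82% and 12.5% of all genes did against the rest and 3.28% and 23.8% against Mpo-high cells. Lrrk2, a kinase that phosphorylates Rab8 and Rab10 among others, had means of 27.1 and 36.5 TPM in class II-high cells, 0.0685 and 2.84 TPM in Mpo-high cells and 1.9 and 0 TPM in the rest. Its difference was 2.67 from the rest (2.31 and 3.03; limma adjusted p 0.00406) and 2.55 from Mpo-high cells (limma adjusted p 0.00421). Osbpl1a, which binds Rab7 on late endosomes, was called lower than in the rest at -3.31, and Rilpl2, which binds phosphorylated Rab8 and Rab10, at -2.26 (limma adjusted p 0.00771 and 0.0499). Rilpl2 and Zfyve20 were called lower than in Mpo-high cells. The medians of the GEF, GAP and effector lists were -0.36, -0.37 and -0.45 against the rest, where that of all genes was -0.71.

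The authors' second table, in RPKM (reads scaled by gene length and library), listed 31 of the 58 members. They were above the lowest value of their gene in a median of 4 cells, and 9 members in 10 or more cells, so it shows few of the cells seen in TPM. Rab43 was above that value in 2 cells, both class II-high, Rab32 in 3 class II-high cells and 1 of the rest, and Rab8b in 9 class II-high, 2 Mpo-high and no other cells. Rab44 was above it in 28 cells, of which 1 was class II-high. Rab38 was not listed. For the 15 of 17 called differences whose gene was listed, the sign in RPKM was the same in 14 and the difference was 0 for Rab31 against the rest. Most sizes were far smaller, on log2(RPKM + 1): against the rest, 0.03 for Rab43, 0.21 for Rab8b, -0.17 for Rab27a and -0.78 for Rab44, and -0.01 for Rab3d against Mpo-high cells.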

How the data were processed

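Expression was taken from a table of TPM values that the authors deposited for 23955 genes (RSEM output, going by the name of the file; TopHat2, RSEM and Bowtie2, builds mm10 and mm9, per the submitters' processing notes, versions and pairing not given in the sources used here). A second deposited table holds RPKM values of 9310 genes, of which 9210 were matched to symbols. Every column of both was matched to a sample by cell name. Values were averaged as log2(TPM + 1) per mouse and class and compared with limma 3.58.1 in R 4.3.3 (mouse as block, trended moderation, 6 means, 3 contrasts, Benjamini-Hochberg over 8718 genes). The code was also run on simulated cells. Apart from shifts set in chosen genes, these had 1 detection rate per gene in all classes of a mouse. That run cannot show how the p-values behave when class differences vary between mice or when a class has fewer detected genes. S100a8-high cells and the mice were compared without a test. No doublet caller was run; single-cell chambers had been picked by visual scoring, per the labels' protocols. Cells of 1 mouse are not replicates. The alternatives are in the closing section. Members, roles and lists were chosen with earlier results of these data known. Named were all called members, the 12 highest, the 4 largest differences in each direction with 1 sign in both mice, those between the mice, and 3 genes per list, of which 1 is not reported here. Others were named after their values were seen, for opposite signs or by family. Gene positions are from GENCODE vM21 (GRCm38), which held 56 of the 58 members. Per-million scaling by the authors makes each level a share of its cell's transcripts.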

Additional observations from a re-analysis of the deposited data

Results flagged for a closer look

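In 7 cases a member tested moved by 1 or more in opposite directions in the 2 mice, in log2(TPM + 1). Whether the mice differ was not tested, since each is 1 animal. Rab7 is the case that appears in both comparisons of class II-high cells: against the rest its difference was 3.85 in mouse 1 and -1.88 in mouse 2, and against Mpo-high cells 2.36 and -1.32. Against Mpo-high cells, Rab5a of early endosomes had differences of 1.11 and -1.33, and Rab8a had -1.74 and 1.06. Between Mpo-high cells and the rest, Rab2a, of traffic between the Golgi and the endoplasmic reticulum, had differences of 1.60 and -3.01. In that comparison Rab18, of lipid droplets and the endoplasmic reticulum, had 1.39 and -1.64, and Rab28 had 1.04 and -2.35. The rest of mouse 2 held 6 cells, which limits the last 3 and Rab7 against the rest.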

How the results depend on the processing

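All 17 called differences kept their sign in 11 alternative fits. The fit on genes at 1 TPM in at least 24 cells held 16 of them, since it left out Rab37. That fit, the fit without a filter and the fit with no replicate block reuse the main class means. Their differences equal the main ones by construction, so no sign could change there. The called differences were still called in 17 of 17 cases with a pseudocount of 0.1, with means weighted by cell number and without the cells past more than 1 cut. With a pseudocount of 10, 13 were called, with a cut of 300 TPM 12, with a cut of 3000 TPM 16, with the detected-gene number removed 14 and with no replicate block 15. Without a filter on low values, 0 members were called higher and 0 lower in either comparison. With the log2 of the mean TPM, 0 were called higher and 2 lower in each. With the cut at 300 TPM, 3 members were called lower than the rest, and with the detected-gene number removed 5 were called higher than in Mpo-high cells; the cause was not tested. Between the mice, Rab18 and Rab37 turned to 0.04 and 0.60 in the rest cells alone. The fits compare classes within each mouse, with the mouse as block; the values with no replicate block are above. Leaving out a mouse leaves no spread to test, so only values were given: the differences from the rest ran from -6.46 to 5.24 and those from Mpo-high cells from -7.37 to 4.70, none of opposite sign. Depth is unknown, so a 0 may be a transcript that was missed.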

Other observations

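Rab39, Rab30 and Rab19 were seen in too few cells to be tested (9, 9 and 7 cells at 1 TPM or more) and were singled out after their values were seen. Rab39 was detected in 3 of 14 and 4 of 20 class II-high cells, in 1 cell of the rest of mouse 1 and in 1 S100a8-high cell, and reached 607.9 TPM. Rab30 was seen only in class II-high cells, 3 in mouse 1 and 6 in mouse 2, and reached 453 TPM. Rab19 was seen in 1 and 4 class II-high cells, 1 Mpo-high cell of mouse 1 and 1 cell of the rest of mouse 2. No test was made of these counts.

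Rab33b, a Golgi and autophagy Rab, was the only member at 1 TPM or more in all 96 cells (lowest 1.08, median 47.7, highest 577.7 TPM). Only 121 genes were, and 20 of them had a mean under 100 TPM. In the RPKM table the same gene was above its lowest value in 1 cell, so its steady level differs between the deposited tables and is uncertain.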
